A study of Mus musculus with 8 samples.

Results

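Aoc3, Maoa, Maob, Adrb1, Adrb3 and Slc6a2 are 6 genes through which cells break down amines, sense catecholamines or take up norepinephrine. They were taken by gene symbol, as a set put together with earlier results of these data known, from the 17740 genes listed for HFD mice and the 16436 genes listed for ND mice, and all 6 were in both tables. RNA was sequenced from 2 kinds of macrophage of the epididymal white adipose tissue (eWAT) of wild-type male C57BL/6J mice. Adhesion-related macrophages (ARMs) were sorted from the adipocyte layer of digested tissue after the adipocytes had been broken by vortexing. Macrophages of the stromal vascular fraction (SMs), labelled NARM in the deposited data, were sorted from the cells that settle below it. The mice were 6 weeks old when their diets began and were kept on a normal chow diet (ND) or on a high-fat diet (HFD) for 8 weeks. Each of the 4 groups had 2 libraries, and each library pooled cells of 6 HFD mice or 10 ND mice, so the spread between libraries is not a spread between single mice. Library totals ran from 14508824 to 19040133 estimated counts.

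Sympathetic nerve endings in adipose tissue release norepinephrine, which acts on adrenergic receptors of adipocytes and immune cells. The beta receptors are coupled to adenylyl cyclase and raise cyclic AMP, which in adipocytes sets off lipolysis. Norepinephrine is cleared by uptake through the transporter encoded by Slc6a2 and broken down inside the cell by enzymes that include the monoamine oxidases, and macrophages lying along sympathetic nerves have been described as carrying this transporter and MAOA. Aoc3 encodes vascular adhesion protein 1, an amine oxidase of the cell surface that adipocytes, smooth muscle and endothelium carry and that acts on other primary amines such as methylamine.

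The 3 oxidases belong to 2 unrelated enzyme classes, and the stretches of coding sequence around their cofactor sites are shown because they tell apart the class of Maoa and Maob from that of Aoc3 and Aoc2. Maoa and Maob hold a flavin on a cysteine, whereas Aoc3 and its neighbor Aoc2 turn a tyrosine of their own chain into topaquinone. All 4 stretches are 45 bases of the coding strand from GENCODE M21 transcripts (GRCm38), with the cysteine or tyrosine codon in capitals.
Maoa: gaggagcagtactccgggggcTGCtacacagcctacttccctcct
Maob: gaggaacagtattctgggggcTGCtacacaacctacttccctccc
Aoc3: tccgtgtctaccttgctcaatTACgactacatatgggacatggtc
Aoc2: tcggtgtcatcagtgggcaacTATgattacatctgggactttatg
The Maoa stretch lies at chrX:16682231-16682275 (plus strand, codon 406) and the Maob stretch at chrX:16716409-16716453 (minus strand, codon 397), each in coding exon 12 of 15, and they share 40 of 45 bases. The Aoc3 stretch lies at chr11:101332329-101332373 (plus strand, codon 471) and the Aoc2 stretch at chr11:101326467-101326511 (plus strand, codon 466), each in coding exon 1 of 4, and they share 30 of 45 bases. Maoa and Maob stand tail to tail on chromosome X with 21463 bases between them, and Aoc2 ends 902 bases before Aoc3 begins on chromosome 11.
Over the whole coding sequence Maoa and Maob were 71.4% identical, Aoc3 and Aoc2 69.7%, and Maoa and Aoc3 48.5%. Aoc3 and Aoc2 also shared an unbroken run of 125 bases. Of the 4617 50-base stretches of the Aoc3 transcripts, 3.79% occur in transcripts of another gene, with 122 found in Aoc2 and 55 in Gm11618. Part of the Aoc3 reads could therefore have been divided with these genes. The deposited counts of Aoc3 were not whole numbers in HFD mice and were whole in ND mice.

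Aoc3 was higher in ARMs than in SMs on both diets. In HFD mice its FPKM (fragments per kilobase of transcript, scaled to the depth of the library) was 6.06 and 5.27 in ARMs against 1.47 and 1.17 in SMs, from 395 and 376 counts against 113 and 88.6. In ND mice its FPKM was 2.86 and 5.45 in ARMs against 1.72 and 1.92 in SMs, from 181 and 309 counts against 98 and 129. Both ARM libraries lay above both SM libraries on each diet, as for 26.3% (HFD) and 21.2% (ND) of the genes tested. The ARM libraries of ND mice had an SD of 1.83 FPKM around their mean of 4.16. On HFD the log2 fold change of ARMs over SMs was 1.95 (SE 0.13, 95% interval 1.67 to 2.24, adjusted p = 2.1e-05 in the quasi-likelihood test of edgeR after Benjamini-Hochberg adjustment), a fold of 3.87. On ND it was 1.13 (SE 0.25, 95% interval 0.60 to 1.66, adjusted p = 0.0149 in the same edgeR test), a fold of 2.19. A gene was called when its fold change was over 1.5 and its adjusted p was under 0.05, and Aoc3 was called on both diets. The ND value rested on ARM replicate 2, without which the log2 fold change was 0.58 and the adjusted p of edgeR was 0.275, whereas the HFD call held with each library left out in turn (log2 fold changes of 1.79 to 2.14).

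Adrb3, the beta receptor best known from adipocytes, was also called higher in ARMs on both diets, at a far lower level. Its FPKM in HFD mice was 1.15 and 1.21 in ARMs against 0.09 and 0.26 in SMs, from 61 and 63 counts against 5 and 14. In ND mice it was 0.49 and 0.59 in ARMs against 0.08 and 0.17 in SMs, from 21 and 24 counts against 3 and 7. Both ARM libraries lay above both SM libraries on either diet, as for 26.3% (HFD) and 21.2% (ND) of the genes tested. No SM library held more than 14 counts. The log2 fold change was 2.71 in HFD mice (SE 0.38, 95% interval 1.88 to 3.55, adjusted p = 0.00155, edgeR) and 2.15 in ND mice (SE 0.52, 95% interval 1.04 to 3.26, adjusted p = 0.0259, edgeR). From the counts alone the ratio of ARMs to SMs was 6.76 (95% exact interval 4.15 to 11.6) in HFD mice and 4.48 (2.23 to 9.97) in ND mice, intervals that cover counting error only. The call was lost without HFD ARM replicate 2, where the adjusted p was 0.0532, and in ND mice the adjusted p was 0.223 without ARM replicate 2, 0.457 without SM replicate 1 and 0.0953 without SM replicate 2, while the log2 fold change stayed between 1.71 and 2.82 there. DESeq2 gave an adjusted p of 0.202 in ND mice, and over all alternatives the adjusted p ran from 5.1e-05 to 0.0711 in HFD mice and from 0.00036 to 0.457 in ND mice. An antisense gene, Gm45470, overlaps Adrb3 on the opposite strand, 19.2% of the 50-base stretches of the Adrb3 transcripts occur there, and whether the counting used strand is not given in the sources used here, so reads of both cannot be told apart.

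**Figure D1:**
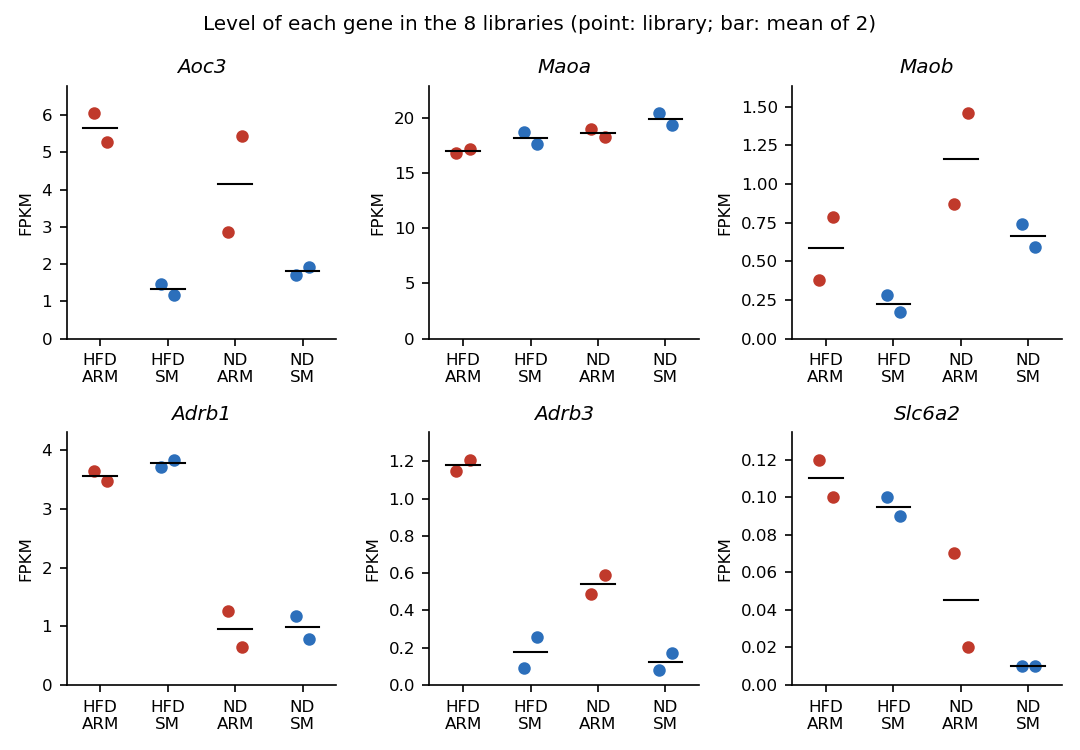
FPKM (vertical axes, each from 0) of the 6 genes in the 8 libraries, with ARMs in red and SMs in blue, each point a library and each bar the mean of 2. Aoc3 and Adrb3 stand higher in ARMs than in SMs on both diets, and Maoa lies between 16.8 and 20.4 everywhere. Adrb1 stands higher in the HFD libraries than in the ND libraries and was not called between cell types.

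Maoa, the mitochondrial oxidase that prefers serotonin and norepinephrine, was the most strongly expressed of the 6 genes in FPKM and differed little between cell types. Its FPKM was 16.8 and 17.1 in HFD ARMs, 18.7 and 17.6 in HFD SMs, 19.0 and 18.3 in ND ARMs and 20.4 and 19.3 in ND SMs. On each diet the pair of ARM libraries lay below the pair of SM libraries, as it did for 26.4% (HFD) and 22.8% (ND) of the genes tested. The log2 fold change was -0.12 in HFD mice (95% interval -0.27 to 0.02, adjusted p = 0.303, edgeR) and -0.09 in ND mice (95% interval -0.30 to 0.12, adjusted p = 0.771, edgeR). A change of 1.5-fold in either direction lay outside both intervals.

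Maob, the second mitochondrial form, was expressed at a small share of the level of Maoa. Its FPKM was 0.38 and 0.79 in HFD ARMs against 0.28 and 0.17 in HFD SMs, and 0.87 and 1.46 in ND ARMs against 0.74 and 0.59 in ND SMs. The ARM libraries lay above the SM libraries on both diets without overlap, as for 26.3% (HFD) and 21.2% (ND) of the genes tested. The log2 fold change was 1.32 in HFD mice (SE 0.46, adjusted p = 0.111, edgeR) and 0.80 in ND mice (SE 0.36, adjusted p = 0.304, edgeR), so Maob was not called on either diet. It rested on 8 to 48 counts a library.

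Adrb1, the beta receptor that norepinephrine and epinephrine engage about equally, was not called between ARMs and SMs on either diet. Its FPKM in HFD mice was 3.65 and 3.48 in ARMs and 3.72 and 3.84 in SMs, a small difference without overlap. Having the ARM pair below the SM pair was common on HFD, at 26.4% of 13337 tested genes. In ND mice the Adrb1 FPKM was 1.26 and 0.65 in ARMs and 1.18 and 0.78 in SMs, where the groups overlapped. The log2 fold change was -0.11 in HFD mice (95% interval -0.39 to 0.16, adjusted p = 0.658, edgeR) and -0.02 in ND mice (95% interval -0.80 to 0.76, adjusted p = 0.989, edgeR). The ND interval is wide enough to hold a 1.5-fold change in either direction.

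Slc6a2, the norepinephrine transporter, was barely detected. Its counts were 13.5 and 11.5 in HFD ARMs, 12.5 and 10.2 in HFD SMs, 7 and 2 in ND ARMs and 1 and 1 in ND SMs, which is an FPKM of 0.12 or less in every library. Its log2 fold change was 0.26 on HFD (SE 0.43, adjusted p = 0.782, edgeR). In ND mice Slc6a2 did not pass the filter on low counts, and the ratio of ARMs to SMs was 4.48 from 9 counts against 2, with a 95% exact interval of 0.93 to 42.6. A count of 3 was worth 0.028 to 0.032 FPKM in the ND libraries. At this depth the ND interval holds both no difference and a large one, so whether the ND groups differ cannot be told.

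In all, 2 of 6 members were called higher and 0 lower in HFD ARMs, where 4.46% of 13337 genes tested were called higher and 0.292% lower. In ND mice 2 of the 5 members tested were called higher and 0 lower, where 3.55% of 12441 genes tested were called higher and 0.129% lower. A further member, Maob, had an unadjusted p under 0.05 on each diet in edgeR, as did 23.2% (HFD) and 14.9% (ND) of all genes tested. No member was called lower by DESeq2 either, and no member had a negative log2 fold change with an unadjusted p under 0.05. The median log2 fold change was 0.79 over 6 members (HFD) and 0.80 over 5 (ND), against -0.01 and -0.02 over all genes tested. The HFD median fell between Slc6a2 (0.26) and Maob (1.32), and the ND median was the value of Maob, none of them called. The set was put together with earlier results of these data known, so neither its calls nor its medians test the set against all genes.

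**Figure D2:**
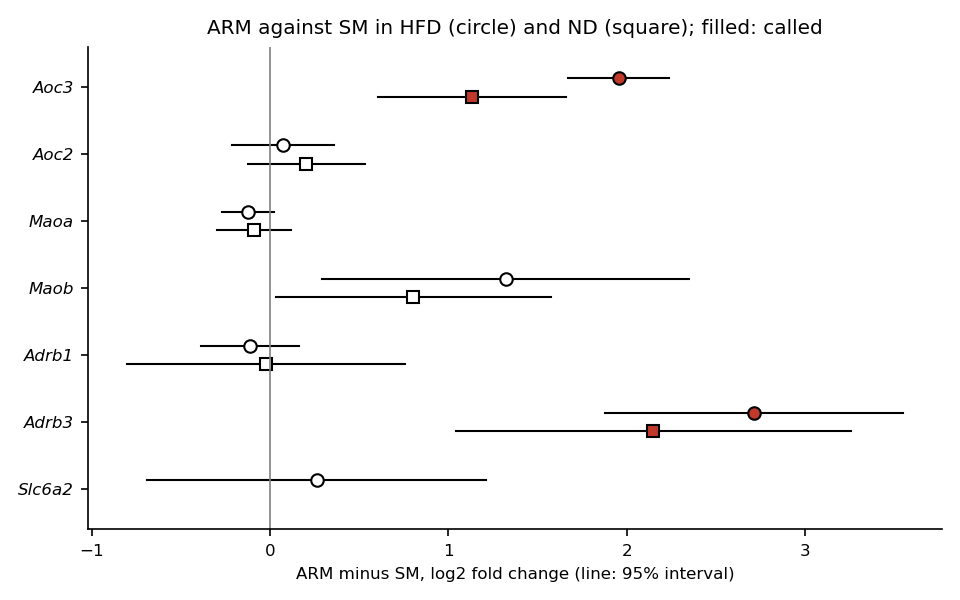
Log2 fold change of ARMs over SMs (horizontal axis) with its 95% interval for the 6 genes and for Aoc2, with circles for HFD mice and squares for ND mice. Red marks genes called higher: Aoc3 and Adrb3 lie at 1.13 to 2.71, the others are open, and Slc6a2 has no ND value because it was not tested.

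The size of the ARM against SM change was also compared between the diets, with all 8 libraries in a single fit. None of the 6 members passed, where 0.165% of 13358 genes did. An unadjusted p under 0.05 was reached by 1 member, Aoc3, in edgeR and by 1 member in DESeq2. The share of all genes with such a p was not counted, so nothing is drawn from it. The Aoc3 change was larger by 0.81 on the log2 scale in HFD mice (95% interval 0.06 to 1.56, adjusted p = 0.602, edgeR). Without ND ARM replicate 2, whose Aoc3 level was 5.45 FPKM against 2.86 in replicate 1, the difference was 1.37 with an adjusted p of 0.0246, and over all alternatives the adjusted p of edgeR or DESeq2 ran from 0.0246 to 1.0. For Adrb3 the difference was 0.55 (95% interval -1.04 to 2.13, adjusted p = 0.946, edgeR), for Maob 0.50 (-0.82 to 1.82), for Adrb1 -0.12 (-0.91 to 0.67) and for Maoa -0.05 (-0.29 to 0.19).

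Adrb1 separated by diet in both cell types. All 4 HFD libraries (3.48 to 3.84 FPKM) lay above all 4 ND libraries (0.65 to 1.26 FPKM), as for 13.9% of the 10858 genes with a mean FPKM of at least 1. The ratio of HFD to ND was 3.73 in ARMs and 3.86 in SMs, and 0.967% of these genes had a ratio over all libraries at least as large as the 3.80 of Adrb1, while their median ratio was 0.897. The Adrb1 ratio was 3.82 and 4.07 in TPM (transcript shares of the library) and 3.96 and 4.16 in CPM (counts scaled to the library total and its TMM factor). The diets were deposited in separate tables that were made differently, so diet and table cannot be told apart and these differences carry no test. The gene length implied by counts and FPKM, HFD over ND, was 1.07 for Adrb1.

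The stretches around the DRY motif, at which beta receptors meet their G protein, are shown for the receptor that separated by diet and the one that separated by cell type, with the motif in capitals, in 51 bases of the coding strand (GENCODE M21, GRCm38).
Adrb1: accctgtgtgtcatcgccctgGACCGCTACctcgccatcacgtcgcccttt
Adrb3: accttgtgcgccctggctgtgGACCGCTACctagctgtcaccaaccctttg
The Adrb1 stretch is at chr19:56722813-56722863 on the plus strand and the Adrb3 stretch at chr8:27228000-27228050 on the minus strand. They share 35 of 51 bases, the whole coding sequences are 58.7% identical, and the longest run in common is 30 bases.

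The other members were lower, higher or overlapping between diets. Maob was lower on HFD, with a ratio of HFD to ND of 0.502 in ARMs and 0.338 in SMs and no overlap in either cell type. Of the 10858 genes with a mean FPKM of at least 1, among which Maob, Adrb3 and Slc6a2 do not fall, 49% had both HFD libraries below both ND libraries in ARMs and 53% in SMs, so such an order was common. Maoa was also lower without overlap, at ratios of 0.910 and 0.912, close to the median ratio of 0.897 over genes with a mean FPKM of at least 1. Adrb3 in ARMs had a ratio of 2.19 without overlap, where 25.3% of the 10858 genes had higher HFD libraries in ARMs and 23.8% in SMs, and in SMs its diets overlapped. Aoc3 overlapped between diets in ARMs, where its ratio was 1.36, and in SMs its HFD libraries were the lower ones, at 0.725. Slc6a2 lay between 0.09 and 0.12 FPKM in HFD libraries and between 0.01 and 0.07 in ND libraries. The order of mean Slc6a2 levels was HFD ARMs, HFD SMs, ND ARMs and ND SMs, on 1 to 13.5 counts a library. HFD ARMs and HFD SMs were not told apart by the test, and ND ARMs and ND SMs were not tested. Maob fell in the order ND ARMs, ND SMs, HFD ARMs and HFD SMs, of which ND SMs and HFD ARMs overlapped. Its ARMs and SMs were not told apart on either diet (adjusted p = 0.304 in ND and 0.111 in HFD mice, edgeR).

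Macrophages of both layers were strong in their own markers: the 8 macrophage markers summed to 7019 to 7543 FPKM in HFD libraries and 8817 to 9144 in ND libraries, and none was called. Markers of several other cell types were also higher in ARMs, where 4.46% (HFD) and 3.55% (ND) of all genes tested were called higher. The 10 adipocyte markers summed to 614 and 715 FPKM in HFD ARMs against 274 and 238 in SMs, with 9 of 10 called higher, and to 415 and 575 in ND ARMs against 272 and 347 in SMs, with 7 of 10 called higher. The log2 ratio of these sums was 1.38 (HFD) and 0.68 (ND), below the median log2 fold changes of 2.48 and 1.40 over the 10 genes. The sums thus lean on markers that changed less and do not measure an amount of adipocyte RNA. None of the 10 was at 0 in any library, and Adipoq, the adipocyte hormone adiponectin, had log2 fold changes of 2.85 (HFD) and 1.47 (ND) (adjusted p = 5.8e-06 and 0.00554, edgeR). ND ARM replicate 2, the library with the higher ND level of Aoc3, Maob and Adrb3, also had the higher sum of adipocyte, endothelial, fibroblast, pericyte and smooth muscle, and mesothelial markers. Its macrophage (9144 against 8817 FPKM), mast cell (3.98 against 1.43) and T and B cell sums (5.90 against 4.59) were higher too. In HFD mice ARM replicate 2 had the higher adipocyte sum and the lower Aoc3 level (5.27 against 6.06 FPKM). HFD SM replicate 2 had the lower adipocyte and endothelial sums and the higher Adrb3 level (0.26 against 0.09 FPKM). Markers of endothelium, another tissue that carries Aoc3, summed to 40.9 and 39.8 FPKM in HFD ARMs against 17.6 and 12.2 in SMs (7 of 8 called higher) and to 11.1 and 21.1 in ND ARMs against 8.49 and 10.2 (1 of 8). Pericyte and smooth muscle markers were called higher for 4 of 10 in HFD mice and 2 of 9 in ND mice, fibroblast markers for 5 of 8 and 7 of 8, and mesothelial markers for 0 of 6 and 5 of 6. Mast cell markers were called higher for 1 of 6 in HFD mice and 0 of 6 in ND mice, and T and B cell markers for 0 of 7 on both diets. The part of such cells or of their RNA in the Aoc3 and Adrb3 results was not tested, and in sorted pools more cells of another type and more of its RNA in each cell cannot be told apart.

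**Figure D3:**
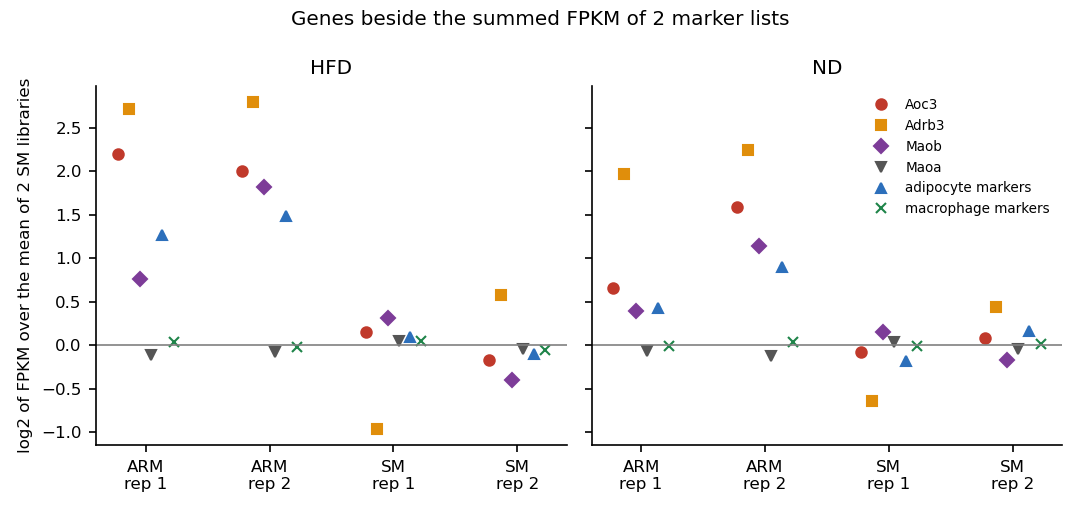
Log2 of the FPKM of Aoc3, Adrb3, Maob and Maoa and of the summed FPKM of the 10 adipocyte and 8 macrophage markers (vertical axis), each relative to its mean in the 2 SM libraries of the same diet, by library. Aoc3, Adrb3, Maob and the adipocyte markers are raised in all 4 ARM libraries, and Maoa and the macrophage markers stay near 0.

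Genes whose pattern over the 8 libraries was most like that of a member were sought among 12342 genes tested on both diets, by the smallest root mean square difference of log2 CPM centered within each diet. For Aoc3 they were Mgll, the monoacylglycerol lipase (0.079), Thrsp (0.108) and Ces1d (0.118). For Adrb3 they were Me1, the cytosolic malic enzyme (0.213), Rbp4 (0.220) and Retn, the adipocyte hormone resistin (0.230). The genes nearest Maob were Asap3, Ushbp1 and Fstl3 (0.134 to 0.147), and those nearest Adrb1 were Stxbp6, Enpp1 and Neil1 (0.079 to 0.084). Lta4h and Mfsd5 were 2 of the 3 nearest Maoa (0.016 and 0.018). The members' own root mean square deviation from their diet means was 0.796 for Aoc3, 0.860 for Adrb3, 0.451 for Maob, 0.231 for Adrb1 and 0.062 for Maoa. Maoa varied little itself, so the small differences from it mark other genes that varied little. The differences do not rank likeness across members. The diets were centered apart, so the likeness to Adrb1 says nothing of its difference between diets.

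Few of the other genes of amine handling were called. Aoc2, at 3.63 to 4.66 FPKM, had log2 fold changes of 0.07 and 0.20 in HFD and ND mice and was not called, so of the 4 amine oxidases tested only Aoc3 was. Of the summed FPKM of Maoa, Maob, Aoc2 and Aoc3, Aoc3 made up 21.9% and 19.1% in HFD ARMs against 6.10% and 4.96% in HFD SMs, and 10.6% and 18.6% in ND ARMs against 6.48% and 7.54% in ND SMs. Among 8 other genes of catecholamine breakdown none was called on either diet, although 2 of them, Sult1a1 and Aldh2, had an adjusted p under 0.05 in HFD mice at a fold under 1.5. Akr1a1, an aldehyde reductase, had the highest level of that list at 344 to 415 FPKM.

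Genes that make or store catecholamines were mostly too low to be tested. Of 5 synthesis genes only Gch1, which makes a cofactor used in several pathways, passed the filter, and it was not called, with log2 fold changes of -0.11 and 0.20. Ddc had at most 2 counts in any library. Among 9 monoamine transporters 3 (HFD) and 2 (ND) were tested and none was called by edgeR (0 with an unadjusted p under 0.05), the highest being the vesicular transporter Slc18a2 at 0.43 to 0.77 FPKM. Markers of sympathetic neurons and Schwann cells summed to 1.64 to 1.94 FPKM in HFD libraries and 0.95 to 1.98 in ND libraries, and none was called. Among the alpha-adrenergic receptors only Adra1a and Adra2a passed the filter in HFD mice and only Adra2a in ND mice, none above 0.34 FPKM and none called.

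Downstream of the receptors, 5 of 28 tested genes of beta-adrenergic signaling were called higher in HFD ARMs and 2 of 28 in ND ARMs, with 0 lower. Of all genes tested, 4.46% (HFD) and 3.55% (ND) were called higher. The median log2 fold change of the 28 genes was -0.02 and 0.02. Gnai1, an inhibitory G protein subunit, rose on both diets by 1.94 and 1.30, and Adcy5, an adenylyl cyclase, by 1.44 and 2.40. Adcy4 rose in HFD mice by 1.42, Prkar1b, a regulatory subunit of protein kinase A, by 0.90, and Grk3, a kinase that desensitizes beta receptors, by 0.69 (adjusted p of these 5 genes from 0.00134 to 0.0247 in HFD mice, edgeR). All but Grk3 lay at 2.28 FPKM or less in every library, and Gnai2, the best expressed of the list at 443 to 531 FPKM, had log2 fold changes of 0.04 and 0.03. A list of 7 genes held lipases, genes that regulate lipolysis and the lipid droplet genes Plin1 and Cidec, so its calls do not measure lipolysis. Of these 7, 4 were called higher in HFD ARMs (Mgll 1.99, Plin1 2.87, G0s2 1.64 and Cidec 2.51), where 4.46% of all genes tested were. In ND ARMs, where 3.55% of all genes tested were called higher, 3 were (Mgll 1.10, Plin1 1.88 and Cidec, the last at 9.09 and 17.3 FPKM against 4.09 and 5.21). Pnpla2, the adipose triglyceride lipase and the best expressed of these at 29.0 to 71.2 FPKM, had log2 fold changes of 0.30 and 0.32 and was not called, although in HFD mice its adjusted p was 0.0135 in edgeR at a fold under 1.5.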

How the data were processed

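RNA-seq of 8 libraries of ARMs and SMs was used. The authors deposited for each diet a table of estimated counts, FPKM and TPM per gene and library, with genome build mm10 per the submitters' processing notes; aligner, counting program and annotation are not given in the sources used here. Each library was a pool of mice. The labels do not say whether the 2 pools of a group held separate mice, so p-values measure only the spread between libraries, which may be technical. Each diet was fitted by itself, on rounded counts, with edgeR 4.0.16 in R 4.3.3 (TMM, filterByExpr, quasi-likelihood test, Benjamini-Hochberg adjustment over all genes tested), and the difference between diets in one fit of 8 libraries. With 2 libraries against 2, an exact permutation test cannot go below p = 0.333. HFD and ND were compared as FPKM values. Alternatives used DESeq2 1.42.0 and limma 3.58.1, other normalizations and filters, pseudocounts of 1 and 0.1 on FPKM, and left-out libraries.

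The fits were tested on simulated data. The members, the gene lists and the rule for named genes were chosen with earlier results of these data known. Under that rule the members were described in full, listed genes were named when called or best expressed in their list, and 3 genes most alike were named per member (log2 of CPM plus 0.5). Aoc2, Sult1a1, Aldh2, Ddc, Gch1 and the alpha receptors were named outside it after their values were seen. Some genes that the rule would name are not reported here. Locations, coding sequences and shared stretches came from GENCODE M21 (GRCm38), and figures were drawn with matplotlib 3.10.9.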

Additional observations from a re-analysis of the deposited data

How the results depend on the processing

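The members called in HFD mice were 2, and 2 under DESeq2, library totals, upper-quartile normalization, one fit of all 8 libraries, limma on log2(FPKM + 1) and on log2(FPKM + 0.1), and 3 under the threshold of the study's methods, which adds Maob. They were 1 without a filter (Adrb3 missed at an adjusted p of 0.0583), 1 with at least 10 counts in every library, where Adrb3 was not tested, and 0 with limma on log2(FPKM + 1) without a filter, and 1 to 2 with each library left out. In ND mice 2 members were called, and 2 under library totals, upper-quartile normalization, no filter and one fit of all 8 libraries. The threshold of the study's methods gave 3, which again adds Maob. They were 1 under DESeq2, 1 with at least 10 counts in every library, and 0 under limma on log2(FPKM + 1), on log2(FPKM + 0.1) and without its filter. With each library left out, the ND log2 fold change ran from 0.58 to 1.54 for Aoc3 and from 1.71 to 2.82 for Adrb3. Adrb3 was below the FPKM filter of limma in ND mice. For the difference between diets 0 members were called, and 0 to 1 with each library left out. With the replicate number as a replicate block, 2 members were called in HFD mice, 2 in ND mice and 0 for the difference between diets, while over all genes the block moved the calls from 634 to 673, from 458 to 786 and from 22 to 187. The same-numbered ARM and SM libraries deviated together with a correlation over genes of -0.0022 (HFD) and 0.26 (ND), and with 2 numbers per diet this does not show that the numbers pair the pools.

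With libraries left out, the log2 fold change of Adrb1 in ND mice ran from -0.58 to 0.36, and the differences between diets ran from -0.48 to 0.49 for Adrb1, -0.10 to 0.93 for Maob, -0.11 to 1.46 for Adrb3 and -0.092 to 0.0095 for Maoa, so their signs are not known. The members above ND in both cell types on HFD, Adrb1 and Slc6a2, were 2 in FPKM, 2 in TPM and 2 in CPM, which are units of the same counts. In FPKM all 4 HFD libraries lay above all 4 ND libraries for 13.9% of the 10858 genes with a mean FPKM of at least 1. Slc6a2 does not fall among those genes and had 1 count in each ND SM library. Diet and table cannot be told apart here either. Depth limits the values of Maob (8 to 48 counts a library), Adrb3 (3 to 63), Slc6a2 (1 to 13.5) and Adrb1 in ND mice (22 to 48). The causes of the lost calls were not tested, other than that fewer libraries or genes were fitted.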
